A study of Mus musculus with 2 samples.

Results

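The EGF receptor family and its ligands were followed through 10 genes, the ligand genes Areg, Ereg, Hbegf, Tgfa, Btc and Egf and the receptor genes Egfr, Erbb2, Erbb3 and Erbb4. The genes were chosen by name and every probe set annotated to them was taken, which gave 20 of the 45037 probe sets and 9 of the 18193 genes that had a probe set of their own. Areg had no annotated probe set in the table used and is not analysed here. Of the 9 genes 7 were measured, meaning that their brightest probe set lay above an intensity floor on at least 1 array, as did 11942 genes in all.

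Each of the 2 groups was 1 pool of total RNA from the whole lungs of 10 C57BL/6 mice, hybridised to 1 Affymetrix array. The mice were 6 to 8 weeks old when 500000 cells of the Lewis lung carcinoma (LLC), a tumour line that arose in a C57BL mouse, were injected into a tail vein, and the lungs were taken on day 19. One group received LLC cells transfected with an empty vector and the other LLC cells overexpressing TDAG8, a proton-sensing receptor encoded by Gpr65 that raises cyclic AMP. Both groups carried tumour cells, no tumour-free lung was compared, no allele of the mice beyond the strain is named, and the sources used here do not say whether the transfected cells were 1 clone. With 1 array per group no test was possible, no value has an error, and every difference below describes these 2 pools.

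EGF family ligands are made as membrane-bound precursors that cell-surface proteases cut free. They bind the receptor tyrosine kinases EGFR and ERBB4, which pair with each other, with ERBB2, which has no known ligand, and with ERBB3, whose kinase is weak and whose ligands are the neuregulins. The paired receptors signal through the RAS and MAP kinase chain and through PI3 kinase. In the lung this system acts in epithelial growth and repair, and it is active in many carcinomas.

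The values were intensities on a linear scale, and both columns had a trimmed mean of 100. The floor was an array's own 50th percentile, an intensity of 26.3 for the vector control and 24.3 for TDAG8. Differences are given as log2 ratios, TDAG8 over vector control. They were centred on the median of 11030 genes that lay above the floor on both arrays and whose ratios had an SD of 0.55. A value under the floor was raised to it, so that a ratio with 1 such side is a bound. In place of replicate error, the spread between probe sets of the same gene was taken as a scale: over 4769 genes with at least 2 usable probe sets it had a pooled SD of 0.27 on the log2 scale. That spread holds the disagreement of probes within these arrays and none of the spread between mice. Gpr65 itself went from 32.3 to 73.9, and whether its mouse probe set reads the transfected sequence is unknown. Lung identity was plain on both arrays, since Sftpc of alveolar type 2 cells had 7475.5 and 6605 intensity units and Scgb1a1 of club cells 10111.5 and 8731.4.

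One ligand was higher in the lungs with TDAG8-overexpressing cells, and most of the rest of the family was lower by less than 2-fold. Ereg, the epiregulin gene, was at least 3.96-fold higher. Tgfa, Btc, Egfr, Erbb2 and Erbb3 had ratios below 0, and Hbegf differed little between the arrays. At 2-fold, 1 of the 7 measured members was higher and 0 were lower, against 5.41% and 1.2% of all measured genes. Of the 20 probe sets 8 lay above the floor on both arrays, 1 on the TDAG8 array only, 1 on the control array only and 10 on neither.

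**Figure D1:**
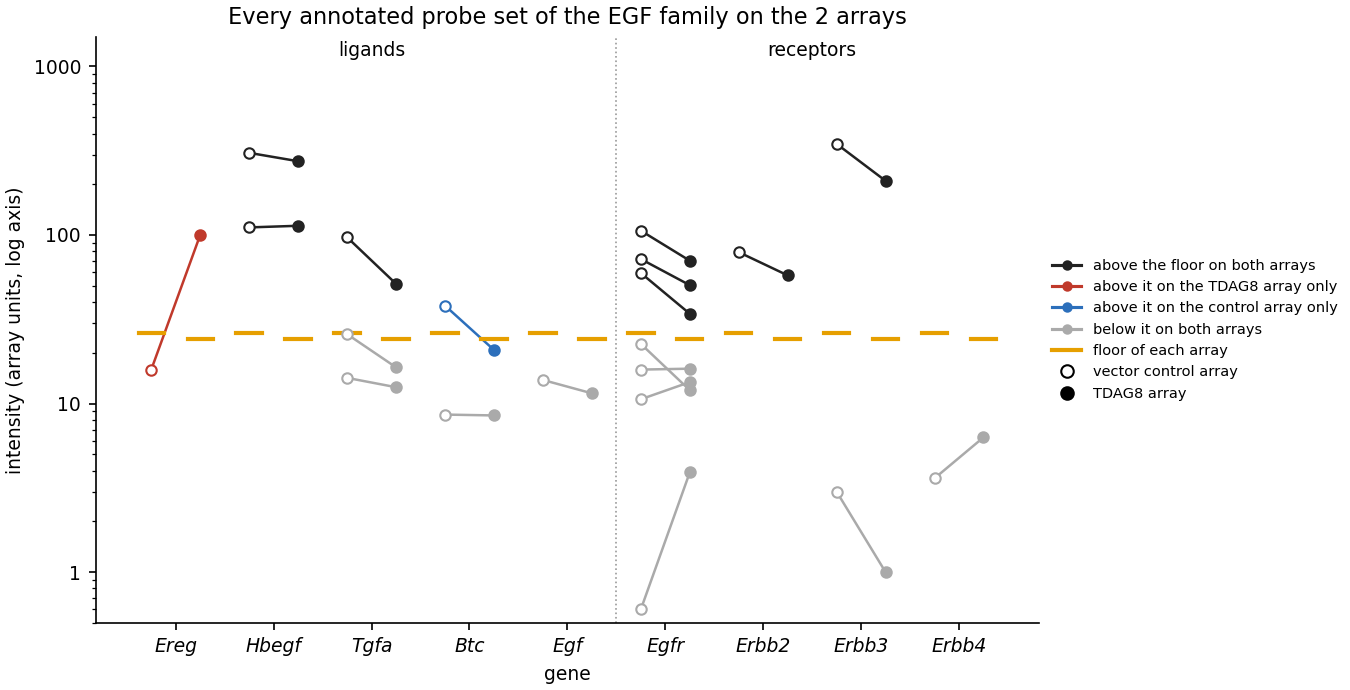
Intensity of every annotated probe set of the family (log axis, array units) on the vector control array (open points) and the TDAG8 array (filled points), with a line joining the 2 values of each probe set. Orange bars mark the floor of each array. The Ereg line crosses the floor upward from 15.9 to 100.1, the Btc line crosses it downward from 38.1 to 20.8, and all 5 receptor lines that lie above it slope down.

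Epiregulin, a ligand of EGFR and ERBB4, is made by several cell types, among them tumour cells and macrophages. Its gene was read by 1 probe set, at 15.9 in the vector control and at 100.1 with TDAG8. The control value was under the floor and the TDAG8 value well over it, so the log2 ratio has a lower bound of 1.99. Only 90 of the 11942 measured genes, 0.754%, had a higher ratio or bound. Ereg was 1 of 474 genes above the floor on the TDAG8 array alone, of which 20.9% were at least 2-fold higher, and its bound ranked 20 among them. The bound depends on the floor: at a higher floor, the 65th percentile, it was 0.73, under 2-fold, and with the floor at the 30th percentile both values were measured and the log2 ratio was 2.73.

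Heparin-binding EGF, encoded by Hbegf and made by epithelium and myeloid cells, was nearly level. Its brightest probe set had 307.1 intensity units in the vector control and 273.9 with TDAG8, a log2 ratio of -0.11. The other probe set had 110.9 and 113.4, a ratio of 0.09. The probe sets thus had opposite signs and differed by less than the usual spread between probe sets of a gene, so no direction is given for Hbegf.

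Transforming growth factor alpha, encoded by Tgfa and a ligand of EGFR in epithelium, was the member with the lowest ratio. Its brightest probe set went from 96.9 to 51.3, a log2 ratio of -0.86 or 1.81-fold lower, and 2.98% of measured genes had a lower ratio. The other 2 probe sets, at 25.8 and 16.4 and at 14.2 and 12.5 in control and TDAG8, were under the floor on both arrays and give no ratio. The lower level of Tgfa therefore rests on 1 probe set.

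Btc, the gene of betacellulin, a ligand of EGFR and ERBB4, had 38.1 intensity units in the vector control and 20.8, under the floor, in the TDAG8 array. It was at least 1.51-fold lower, a bound of -0.59 on the log2 scale. Of the 438 genes above the floor on the control array alone, 5.48% were at least 2-fold lower, and 99 had a larger bound than Btc. A second probe set, with 8.6 and 8.5, was under the floor on both arrays. The founding ligand gene Egf was read by 1 probe set at 13.8 and 11.5, under the floor on both. The Btc and Egf probe sets were thus close to or under the floor used here, which is a choice of processing and not a detection limit. With the floor at the 30th percentile 5 ligands were measured, and Btc was above it on both arrays, at -0.80.

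The receptor genes that were measured were all lower in the TDAG8 pool. Egfr, the receptor of all 6 ligands, was read by 7 probe sets, of which 3 lay above the floor. The brightest went from 106.1 to 70.4, a log2 ratio of -0.53 or 1.45-fold lower. The next went from 72.0 to 50.4, at -0.46, and the dimmest of these from 59.5 to 34.1, at -0.75. The 3 probe sets had the same sign, and their ratios lay about as far apart as probe sets of a gene usually do. The other 4, between 0.6 and 22.6 intensity units in the control and between 3.9 and 16.1 in the TDAG8 array, were under the floor on both.

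Erbb2, which encodes the pairing partner without a ligand of its own, went from 79.1 to 57.6, a log2 ratio of -0.40 or 1.32-fold lower, on its 1 probe set. Erbb3, the neuregulin receptor gene, went from 347.1 to 209.5, a log2 ratio of -0.67 or 1.59-fold lower. A second Erbb3 probe set had 3.0 and 1.0 and was under the floor on both arrays. Erbb4 was read by 1 probe set at 3.6 and 6.3, under the floor on both arrays, so no level was measured for it. Among all measured genes 20.9% had a lower ratio than Erbb2, 14.2% than Egfr and 8.80% than Erbb3, so that none of the receptor values lay far out in the spread of all genes.

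Set against each other, the 4 measured ligands had a median log2 ratio of -0.35, with 1 above 0 and 3 below, and the 3 measured receptors a median of -0.53, with 0 above 0. The median over all measured genes was -0.0014, and 50.1% of them lay below 0. The median of the ligands was 0.18 above that of the receptors, a description of 4 and 3 genes with no test. The ligands spanned from -0.86 to 1.99 and the receptors from -0.67 to -0.40. Ereg set the upper end of the ligand span. The other 3 ligands lay between -0.86 and -0.11, with Btc as a bound, still a wider span than that of the receptors.

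**Figure D2:**
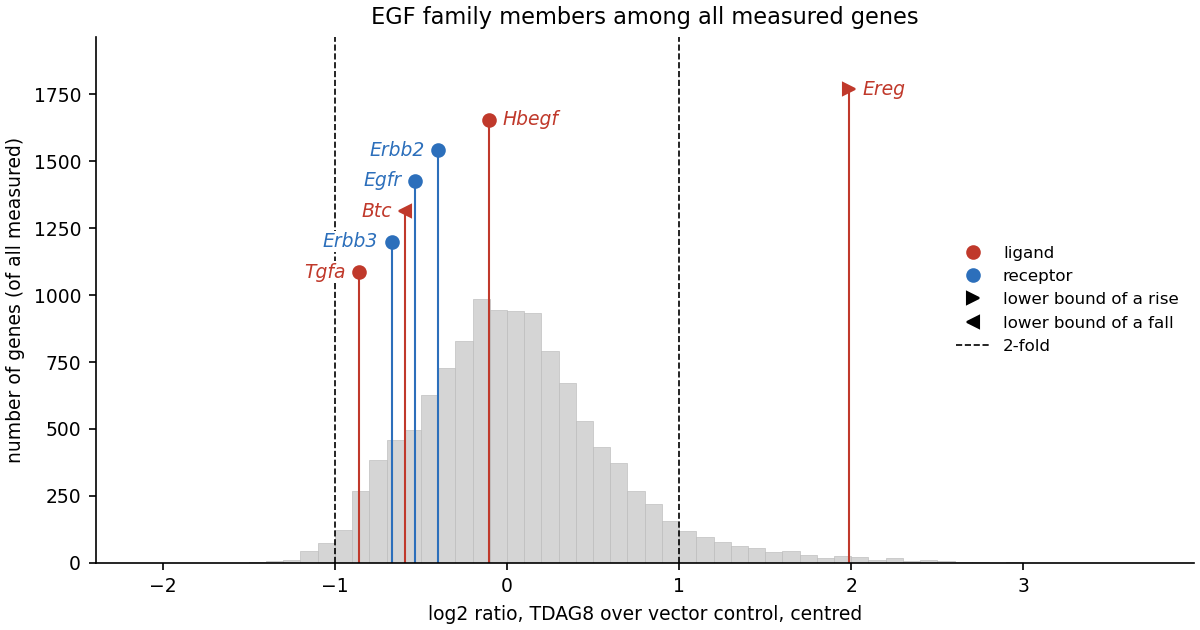
Histogram of the centred log2 ratio (TDAG8 over vector control) for the 11942 measured genes (grey), with the 7 measured family members marked at their ratio (ligands red, receptors blue; the height of a marker has no meaning, and triangles are bounds). Ereg at a bound of 1.99 lies beyond the 2-fold line, while the other members lie between -0.86 and -0.11.

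Markers of lung epithelium, a main site of the ERBB receptors in lung, were lower by a similar amount. Of 18 measured pan-epithelial genes 17 had ratios below 0, their median was -0.70, and the sum of their intensities went from 9609.4 in the vector control to 7042.8 with TDAG8. None was at 0 on either array. The lowest of these ratios above the floor was that of Rab25, an epithelial trafficking GTPase, at -0.90, and the exception was the brightest member, the keratin gene Krt8 at 0.59. All 8 alveolar type 1, all 7 alveolar type 2, all 6 club cell and all 7 ciliated cell markers measured were also below 0, with medians of -0.51, -0.48, -0.44 and -0.80. Their summed intensities went from 24928.7 to 17270.7, from 32454.8 to 24029.1, from 38906.5 to 29259.6 and from 1913.2 to 1082.9. The median of the receptors was 0.16 above that of the pan-epithelial genes. In whole-lung RNA, fewer cells of a type and less RNA per cell cannot be told apart, and the part of the epithelial share in the receptor and Tgfa values was not tested.

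Markers of proliferating and of myeloid cells were higher in the same pool as Ereg. Of all measured genes 5.41% were at least 2-fold higher. All 9 measured proliferation genes passed 2-fold upward. Their median log2 ratio was 2.24, with summed intensities of 1011.9 and 4271.6. Bub1, a spindle checkpoint kinase, was at 2.71 and Top2a, a topoisomerase of dividing cells, at 2.44. The monocyte and macrophage list had a median of 1.07, with 7 of its 9 genes above 0 and 5 past 2-fold. Their summed intensities of 8887.5 and 9174.9 were dominated by the lysozyme gene Lyz2 at -0.09, while the integrin gene Itgam was at 1.73. The 4 neutrophil markers measured had a median of 0.37 and sums of 1078.7 and 1192.5. Fibroblast markers had a median of -0.27, with 3 of 7 above 0 and the proteoglycan gene Lum at 1.14, and sums of 10096.4 and 10116.1. No marker of these lists was at 0 on either array. The part of these cells in the Ereg value was not tested.

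Endothelial and smooth muscle markers were lower, as the receptor genes were. All 9 endothelial markers lay below 0, with a median of -0.75 and sums of 7492.2 and 4447.7. All 7 smooth muscle and pericyte markers lay below 0 as well, with a median of -0.66 and sums of 4258.1 and 2831.8. Ratios of about the size of those of Egfr, Erbb2 and Erbb3 were thus seen across markers of several resident cell types, and their part in the receptor values was not tested either.

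The promoters of Tgfa, Egfr and Erbb2 are shown because these are the members above the floor on both arrays with a lower level and a matched start region. Btc, which had a bound alone, is left out. Of the 10 members 7 had a promoter entry in the RefSeq table of build GRCm38.p6, and Ereg, Hbegf and Erbb3 had none. Each line holds the 250 bases before the start site, on the plus strand, from chr6:86194972-86195221 for Tgfa, chr11:16751953-16752202 for Egfr and chr11:98412234-98412483 for Erbb2. Capitals mark letters that match a searched motif on either strand.
Tgfa: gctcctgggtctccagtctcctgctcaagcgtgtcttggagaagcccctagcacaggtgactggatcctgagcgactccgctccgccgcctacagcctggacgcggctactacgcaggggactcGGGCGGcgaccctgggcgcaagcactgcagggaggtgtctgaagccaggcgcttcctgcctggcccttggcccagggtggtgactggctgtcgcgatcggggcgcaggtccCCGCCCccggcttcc
Egfr: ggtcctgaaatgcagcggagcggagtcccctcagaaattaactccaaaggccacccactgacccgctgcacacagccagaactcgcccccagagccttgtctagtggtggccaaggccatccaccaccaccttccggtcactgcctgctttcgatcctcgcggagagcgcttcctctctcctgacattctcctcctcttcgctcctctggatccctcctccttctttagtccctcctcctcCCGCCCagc
Erbb2: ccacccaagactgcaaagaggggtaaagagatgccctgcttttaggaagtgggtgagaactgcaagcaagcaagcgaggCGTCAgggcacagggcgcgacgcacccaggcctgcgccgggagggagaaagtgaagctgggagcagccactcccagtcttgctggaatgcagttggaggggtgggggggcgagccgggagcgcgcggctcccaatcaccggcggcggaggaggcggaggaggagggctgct

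The motifs searched were the cyclic AMP response element TGACGTCA, its shorter core TGACG, which lies within it, the AP-1 site TGANTCA, the GC box GGGCGG and the TATA box TATAAA, the last 2 of which were added after the data were seen. The Tgfa sequence held 2 GC boxes, the Egfr sequence 1 GC box and the Erbb2 sequence 1 such core, and no other motif matched in them. Over 32817 promoter windows of 300 bases, 35.6% held a GC box, 20.8% the core, 13.6% a TATA box, 7.81% an AP-1 site and 1.79% a full response element. The full 300-base windows of Tgfa, Erbb2 and Egfr were 70.7%, 66.0% and 62.3% G and C, against a median of 52.7% over all windows. Among the family's windows the full response element matched in that of Areg alone. These matches describe the letters only.

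The remaining ligands of the family were mostly under the floor. Epgn, the epigen gene, had 7.2 and 8.6 intensity units, and Nrg1, encoding neuregulin 1, a ligand of ERBB3 and ERBB4, had 9.1 and 7.8. Both probe sets of Nrg3 and both of Nrg4 lay between 0.6 and 16.8 on the 2 arrays. Of 3 probe sets of Nrg2 1 was above the floor, in the control only, at 29.8 against 22.1, a bound of -0.24. Of the neuregulin genes only Nrg2 thus gave a ratio, as a bound from 1 probe set close to the floor.

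Of the genes that release the ligands, 5 of 7 listed were measured, 3 above 0 and 2 below, with a median of 0.04. At 2-fold 0 of them differed, against 5.41% of all measured genes higher and 1.2% lower. The largest ratio was that of Adam17, the protease that sheds TGF-alpha, epiregulin and heparin-binding EGF. Its brightest probe set went from 257.9 to 453.5, a log2 ratio of 0.87. The other 2 went from 138.8 to 248.3 and from 89.1 to 145.8, at 0.90 and 0.77, so that all 3 probe sets were higher by nearly the same amount. Rhbdf2, encoding the adaptor iRhom2 that carries ADAM17 to the cell surface in myeloid cells, was at -0.26, Adam10, the main sheddase of betacellulin and EGF, at 0.14, and Adam9, the brightest, at -0.07.

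Downstream of the receptors, no measured gene of either arm was 2-fold different. Of all measured genes 5.41% were at least 2-fold higher and 1.2% lower, and a count of 0 in lists this short is near those shares. For the adaptors and the MAP kinase chain 12 of 17 listed genes had a probe set and were measured, 6 above and 6 below 0, 0 of them 2-fold different, with a median of 0.02. Map2k1 went from 357.8 to 497.6 and Map2k2 from 222.1 to 286.5, the genes of the 2 MEK kinases, at 0.53 and 0.43. Braf was at -0.33 and the phosphatase gene Ptpn11, the brightest, at -0.24. In the PI3 kinase arm 5 of 7 measured genes were below 0, 0 of them 2-fold different, with a median of -0.38. Pik3r1, the regulatory subunit, went from 547.1 to 293.4, at -0.84, and its other 3 probe sets were below 0 too, the highest at -0.40. Pik3cb was at -0.71, Pik3ca at -0.47 and Akt1, the brightest, at 0.26. The other Pik3ca probe sets above the floor were nearer 0, at -0.34, -0.23, -0.15 and -0.11. The median of the PI3 kinase list was -0.039 with only probe sets that carry no mark of shared sequence, so it rests on the choice of probe sets.

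Feedback inhibitors of the pathway went both ways. All 17 listed were measured, 10 above and 7 below 0, with a median of 0.07, and 2 were at least 2-fold higher. Of all 11942 measured genes 5960 lay above 0 and 5.41% were at least 2-fold higher, so these counts are not far from those of all genes. Lrig1, a membrane protein that promotes the breakdown of ERBB receptors, went from 91.4 to 224.3, a log2 ratio of 1.35 or 2.55-fold, and a second probe set went from 61.7 to 222.3, at 1.91. Another Lrig1 probe set, at 13.9 and 14.0, was under the floor on both arrays. Dusp5, a nuclear phosphatase of ERK that ERK signalling induces, went from 40.5 to 101.3, at 1.38 or 2.60-fold on 1 probe set. Spry1, a Sprouty inhibitor of receptor tyrosine kinase signalling, went from 481.9 to 268.9, at -0.78. Errfi1, a direct inhibitor of EGFR kinase and the brightest of the list, was at -0.33, and its other probe set at -0.06. Dusp6, the cytoplasmic ERK phosphatase, was next in size at 0.78 and is named although outside the rule.

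Genes that growth factors induce were more often above 0. Of 20 listed genes 18 were measured, 12 above and 6 below 0, with 3 at least 2-fold higher and a median of 0.35. Of all 11942 measured genes 5960 lay above 0, and 5.41% were at least 2-fold higher. The list holds Ereg and Hbegf themselves, and without family members it had 16 measured genes, 11 above 0, 2 of them at least 2-fold higher, with the same median. Those 2 were Fosl1, an AP-1 subunit that accumulates under lasting ERK activity, at 3.61, and Myc at 2.68, the 2 largest ratios of the list. Fosl1 went from 27.2, just over the control floor of 26.3, to 320. Its other probe set went from 5.8, under the floor, to 82.3, a bound of 1.70. Junb was at 0.88 and Mcl1, the brightest, at -0.22. The other immediate early genes lay on both sides of 0, and all are named after their values were seen. Above 0 were Fos at 0.44, Ier3 at 0.34, Ier2 at 0.16 and Egr3 at a bound of 0.68. Below 0 were Egr1 at -0.26, Egr2 at -0.25 and Jun at -0.06. The other Egr2 probe set was at 0.18. The list includes genes that many other signals induce.

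**Figure D3:**
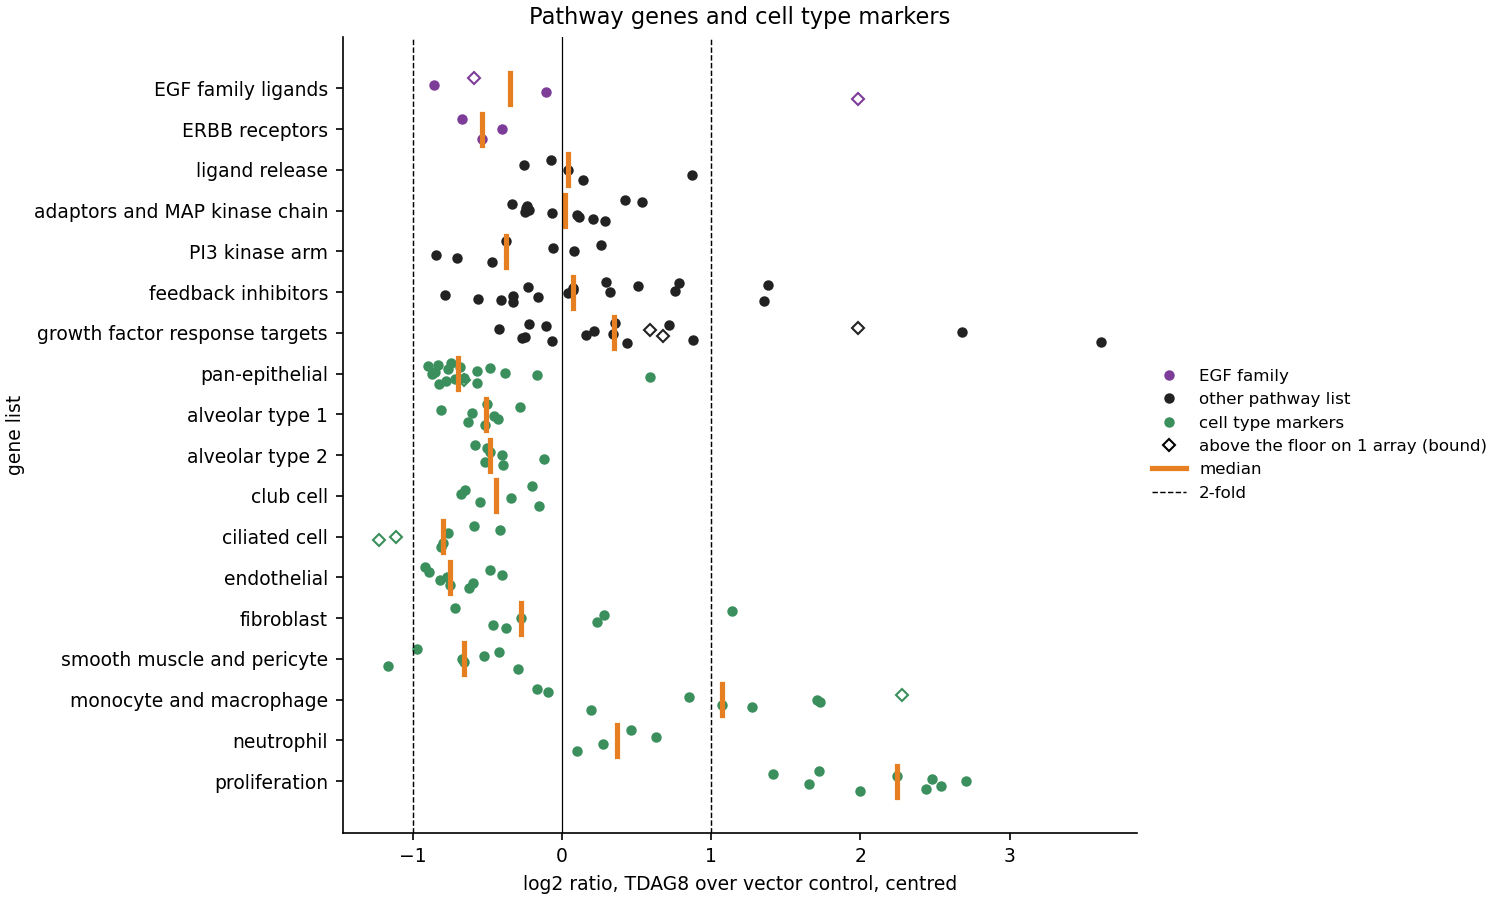
Centred log2 ratio, TDAG8 over vector control, for each measured gene of the family, of the other pathway lists and of cell type marker lists (1 point per gene, open diamonds are bounds, orange bars are medians, dashed lines 2-fold). The ERBB receptors at a median of -0.53 lie in the range of the medians of the epithelial lists, from -0.80 to -0.44. Ereg is drawn at its lower bound of 1.99, and the proliferation genes are drawn from 1.41 to 2.71. The monocyte and macrophage markers are drawn from -0.17 to 2.28, where the upper end, Msr1, is itself a bound. The growth factor response targets, which include Ereg, are drawn from -0.42 to 3.61. A lower bound does not place Ereg inside these ranges. With the floor at the 30th percentile its log2 ratio was 2.73.

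How far the family's values depend on brightness can be read from the spread of all genes at the same level. Among the 2758 dimmest genes above the floor on both arrays, with mean levels from 25.5 to 78.4, which include Tgfa and Erbb2, the SD of the log2 ratio was 0.57. Among genes from 78.4 to 159, which include Egfr, it was 0.60, and among those from 159 to 336, which include Erbb3 and Hbegf, 0.53. The receptor ratios were of about this size. The direction of the 3 receptors and of Tgfa was the same under every alternative run, whereas the ratios of Egfr, Erbb3 and Tgfa were smaller when dim probe sets were averaged in.

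**Figure D4:**
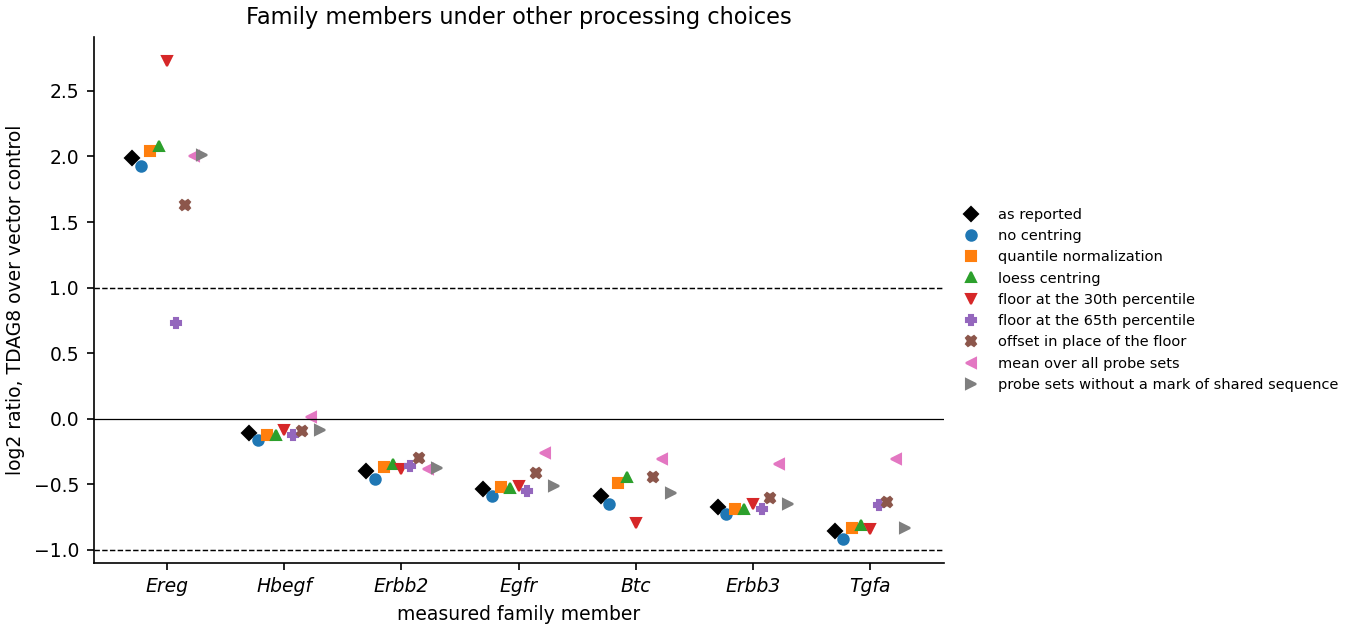
Log2 ratio of the 7 measured members as reported (black diamonds) and under 8 other processing choices, with 2-fold marked by dashed lines. Ereg ranges from 0.73 to 2.73 with the floor, while Egfr, Erbb2, Erbb3, Tgfa and Btc stay below 0 under each choice that gave them a value, and Hbegf lies near 0.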

How the data were processed

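The deposited file holds intensity values, 1 per probe set and array, on a linear scale; per the labels' protocols, 2 µg of each pooled RNA was made into biotin-labelled cRNA by the Affymetrix procedure, which primes at the poly(A) tail. The values show that the authors had scaled each array to a trimmed mean of 100. No source used here names the image software or the genome build. Of 45101 probe sets 64 controls were set aside. Of the rest 34945 had 1 gene symbol in the platform annotation, 932 several and 9160 none; 34741 were matched to current RefSeq symbols. The brightest single-symbol probe set stood for a gene. Ratios were floored and centred as described above, with a shift of -0.06, using Python 3.11.15, pandas and statsmodels. The steps were checked on simulated arrays. No test was run. The members, gene lists and rules were chosen with earlier results of these data known: all members were named, and of each other pathway list the brightest gene and the 3 with the largest ratio among those above the floor on each array. Of marker lists the gene with the largest ratio and the brightest could be named. Tried as alternatives were loess centring with a span of 0.3, no centring, quantile normalization, a lower (30th percentile) and a higher (65th percentile) floor, an offset in place of the floor, the mean over probe sets and only probe sets without a mark of shared sequence. The number of arrays limits the precision.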

Additional observations from a re-analysis of the deposited data

How the results depend on the processing

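No paired analysis was possible because each group had 1 array, and leaving out a replicate was not possible for the same reason. Over 34 results and 8 alternatives, 249 of 269 values moved by less than the spread between probe sets of a gene (0.27) or, for counts, by up to 1.5 times. Without centring every ratio and median moved by the shift of -0.06 alone, so these could not pass that limit. With the lower floor, genes above the floor on both arrays also moved with the shift alone. The same held without marked probe sets for genes whose brightest probe set has no mark. Egfr was thus at -0.52 and -0.51 under these 2 choices. The count of 249 therefore includes many values that could hardly have moved. The limit is also a spread of single probe sets, which is wide for a median over many genes. Egfr, at -0.26 with averaging against -0.53 as reported, was just inside that limit. Floors set the Ereg value: 2.73 with the floor at the 30th percentile, 0.73 at the 65th, where 0 members were 2-fold higher, and 1.63 with an offset. Btc was under the floor at the 65th percentile and has no value there. Averaging all probe sets, which mixes in dim ones held at the floor, gave Tgfa -0.31, Btc -0.31 and Erbb3 -0.35, a PI3 kinase median of -0.079 and a proliferation median of 1.34. It gave Hbegf 0.0091, the only member that turned sign. Probe sets without a mark of shared sequence gave medians of -0.039 for PI3 kinase genes, 0.099 for fibroblast markers and -0.13 for the 3 reference genes left. Mast cell and basophil markers had a median of -0.24 over 4 genes with the lower floor and -0.97 over 1 gene with the higher. As reported that median was over 2 genes, so the genes in it changed with the floor. The median of proliferation genes was 1.82 with an offset. Causes of the changes in value were not tested. Medians near 0, those of the ligand release, MAP kinase and feedback lists, turned sign under 1, 4 and 1 alternatives. Over all genes, 646 higher became 419 with the higher floor, and 143 lower became 345 and 68 with the lower and higher floor, 31 with an offset and 78 with averaging.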

Other observations

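Ereg lies on chromosome 5 in a row of EGF family genes, in the order Epgn, Ereg, Areg and Btc, as RefSeq orders them in GRCm38.p6. Values of the 5 protein-coding genes on each side were read after the Ereg value had been seen. On the Epgn side all but 1 had ratios above 0. Cxcl2, a neutrophil-attracting chemokine gene, had 7.7 intensity units in the vector control, under the floor, and 73.1 in the TDAG8 array, a bound of 1.53. Cxcl1 went from 66.2 to 99.1, at 0.64, Mthfd2l, a mitochondrial folate enzyme gene, from 72.7 to 102.1, at 0.55, and Cxcl3 from 5.0, under the floor, to 31.7, a bound of 0.33. Cxcl15, a chemokine of lung epithelium, went from 4526 to 3561.7, at -0.29. On the Btc side Parm1 was at -0.24, Rchy1 at -0.16 and Cdkl2 at -0.36, and the other 2 had no annotated probe set. In all 4 of the 8 neighbours measured lay above 0 and 1 was at least 2-fold higher, against 5.41% of all measured genes. The row thus held both the member with the highest ratio, Ereg, and a member with a lower level, Btc.

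Of 5 measured reference genes often used for normalization, 3 lay above 0 and 2 below, with the larger ratios above. Sdha was at -0.16, Actb at -0.09, Hprt at 0.43, Tbp at 0.48 and Gusb at 0.55, with a median of 0.43 over 5 genes. With only probe sets without a mark of shared sequence 3 of them were measured, and the median of those was -0.13. Kit, which marks mast cells and also endothelial cells and progenitors, went from 481 to 238.4, at -0.95. B cell markers had a median of -0.39 over 3 genes, and the T and innate lymphoid list one of 0.27 over 5. The red cell list was left with Alas2 alone, at -0.85.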
